A study of Mus musculus with 6 samples.

Results

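The genes described here are 10 inflammatory cytokines and related ligands: Tnf, Il1a, Il1b, Il1rn, Il18, Il6, Osm, Lif, Il12b and Il10. They were found as every probe on the array, controls left out, whose transcript accession maps to these symbols, which gave 15 probes for 10 of the 23462 named genes tested. Tnf, Il1b, Il1rn, Il6 and Osm had 2 probes each, and the other 5 genes had 1. Their mRNA was measured in microglia, the resident macrophages of the brain, sorted as live CD45lo Cx3cr1+ CD11b+ cells from the brains of young mice aged 3 months. B41 HET mice (Bhlhe41 dTomato-Cre/+, the control group, 3 samples) carry a dTomato-2A-Cre cassette in front of the start codon of a single Bhlhe41 copy, and B41 KO mice (Bhlhe41 dTomato-Cre/dTomato-Cre, 3 samples) carry it in both copies, which ends translation of Bhlhe41, a basic helix-loop-helix repressor. All samples therefore carry dTomato and Cre from the Bhlhe41 promoter, the loss is not limited to microglia, and wild type microglia were not on the arrays. The methods state that each sample pooled several mice, whereas the labels give 3 mice per genotype. The comparison asks how the cytokine transcripts of resting young microglia differ when Bhlhe41 is lost.

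Cytokines are secreted proteins through which microglia signal to other glia, neurons and immune cells. TNF and interleukin 1 (IL-1) are early inflammatory signals, made largely under the control of NF-kappaB and AP-1 transcription factors, and IL-1 receptor antagonist, the product of Il1rn, occupies the IL-1 receptor without activating it. IL-6, oncostatin M and LIF form a family that signals through the shared receptor subunit gp130, IL-12 p40 is a subunit of IL-12 and IL-23, and IL-10 restrains inflammatory cytokine production. Dissociation of brain tissue is known to induce Tnf, Il1a and Il1b in microglia, so these levels describe cells after isolation.

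The promoters of 4 members are shown: those of Tnf, Il1a and Il1b, whose B41 KO samples lay lower and which hold TATAAA close to the start, and that of Il6, whose groups overlapped, for comparison. The sequences are the 250 bases before the annotated start in RefSeq on GRCm38.p6, 5′ to 3′ on the gene's strand, at chr17:35202008-35202257 (minus strand) for Tnf, chr2:129309973-129310222 (minus strand) for Il1a, chr2:129371140-129371389 (minus strand) for Il1b and chr5:30012864-30013113 (plus strand) for Il6. Capitals mark matches, on either strand, to TATAAA, to the AP-1 motif TGANTCA or to the kappaB motif.
Tnf: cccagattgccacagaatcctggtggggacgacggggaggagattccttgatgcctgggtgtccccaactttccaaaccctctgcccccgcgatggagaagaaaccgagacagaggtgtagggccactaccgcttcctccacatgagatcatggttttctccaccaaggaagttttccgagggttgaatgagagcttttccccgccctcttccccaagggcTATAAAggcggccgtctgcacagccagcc
Il1a: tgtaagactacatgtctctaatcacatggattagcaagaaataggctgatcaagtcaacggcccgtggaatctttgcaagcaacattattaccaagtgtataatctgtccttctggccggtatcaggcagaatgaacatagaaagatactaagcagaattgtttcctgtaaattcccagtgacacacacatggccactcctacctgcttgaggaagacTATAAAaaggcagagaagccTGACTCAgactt
Il1b: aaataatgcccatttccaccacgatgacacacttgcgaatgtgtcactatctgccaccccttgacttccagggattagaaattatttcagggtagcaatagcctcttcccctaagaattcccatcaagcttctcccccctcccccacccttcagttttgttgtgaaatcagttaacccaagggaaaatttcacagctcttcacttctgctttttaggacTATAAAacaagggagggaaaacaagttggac
Il6: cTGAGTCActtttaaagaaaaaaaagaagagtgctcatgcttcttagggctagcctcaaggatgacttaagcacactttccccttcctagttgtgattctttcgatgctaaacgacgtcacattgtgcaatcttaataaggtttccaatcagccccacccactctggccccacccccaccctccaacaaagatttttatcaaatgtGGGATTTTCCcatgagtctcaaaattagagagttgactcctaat
TATAAA began 29 bases before the start in Tnf, 32 bases before it in Il1a and 31 bases before it in Il1b. The Il1a promoter also held TGACTCA, beginning 12 bases before the start, and that of Il6 held TGAGTCA, beginning 249 bases before it, and GGGATTTTCC, a match to the kappaB motif beginning 44 bases before it. Promoters were found for 8 members, with 10 windows of 300 bases (250 before and 50 after the start), since Il1rn has 3, and Il10 and Osm have no entry. Over both strands, TATAAA was in windows of 5 members (the other two were Il18, 175 bases before the start, and Il1rn, 14 bases after it in 1 of its 3 windows, and the groups of both genes overlapped) against 13.6% of all 32851 promoters, TGANTCA in those of 4 members against 7.81%, and the kappaB motif in that of 1 member against 4.51%. The E-box CACGTG, the sequence that Bhlhe41 binds, was in 0 of the 10 windows and in 7.15% of all promoters. At that share, 0 of 10 windows does not set these promoters apart. Sites farther from the start were not searched, and the Cd22 promoter site that the study found bound by Bhlhe41 lies farther upstream than such windows reach. No matches overlapped, and a match is a description of these letters only.

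The array gives each probe a single fluorescence intensity per sample, compared here as log2 signal after quantile normalization. Of the 15 cytokine probes, 12 were well above background on all 6 arrays and 3 on none, and no spot was saturated. The 3 dim probes were the only Il10 probe, the dimmer Il1rn probe and the dimmer Il6 probe, so for Il10 neither group had a measured level and no fold is given in the text. The Il10 probe still counts in the median of the members. Between 70.1% and 75.5% of all probes were well above background on an array, and the number of arrays limits the precision. Log2 signals of all probes correlated at 0.989 to 0.993 between samples of a genotype and at 0.985 to 0.989 between genotypes. The brightest Bhlhe41 probe gave 7.95, 7.87 and 7.65 in B41 HET and 8.56, 7.84 and 8.21 in B41 KO samples (a difference of 0.38 with a standard error (SE) of 0.20 and a limma adjusted p of 0.33), so this transcript, which was not lower, does not check the labels. Row 1 of the slide held all 3 B41 HET arrays with B41 KO replicate 1, and row 2 held B41 KO replicates 2 and 3.

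**Figure D1:**
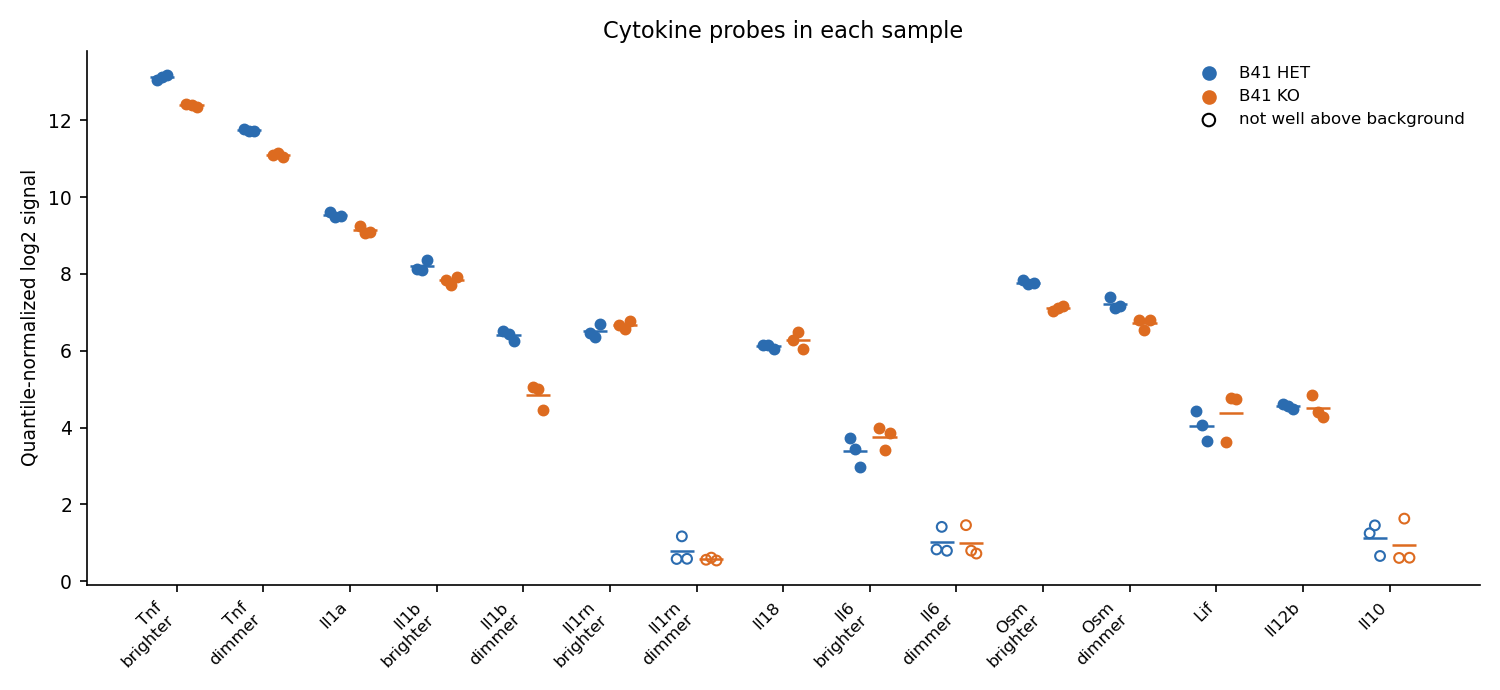
Quantile-normalized log2 signal (vertical axis) of all 15 cytokine probes in 3 B41 HET (blue) and 3 B41 KO (orange) samples, with a point for each sample and a line for each group mean. Open points were not well above background. The orange points of both Tnf, both Il1b, both Osm probes and the Il1a probe all lie below the blue ones, and those of the other probes overlap.

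Tnf and Osm were lower in B41 KO microglia, and no cytokine was called higher. A gene was called when its brightest probe reached a limma adjusted p of at most 0.05 together with a log2 difference of at least 0.5 in size, and 2 of 10 members were called lower, 0 higher and 8 not, where 4.01% of all genes were called lower and 1.44% higher. Counted by probe, 4 of 15 were called, all lower, against 3.34% of all 56601 probes called lower and 5.07% called in either direction. In 7 of the 15 probes every B41 KO sample lay below every B41 HET sample, against 15.2% of all probes. In 0 every one lay above, a count not made over all probes. At an unadjusted limma p under 0.05, 7 of the 15 probes were lower and 0 higher, against 12.1% of all probes lower at that p. By brightest probe, 10.6% of all genes were higher at that p. Both sets of 7 are the probes of Tnf, Il1a, Il1b and Osm, so they are not 7 separate genes. The median log2 fold change of the 10 members, with Il10 at background counted in, was -0.11, against 0.01 over all genes, and its sign was not stable. With the filter on dim probes, which left out Il10, the median was -0.05 over 9 members. It was 0.14 when arrays were shifted to their 75th percentile, where that of all genes was 0.10, 0.00047 with normexp correction and 0.04 without B41 KO replicate 3, and in the other direction -0.19 without B41 HET replicate 3 and -0.31 with slide row in the fit.

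Tnf, which encodes the ligand of the TNF receptors, gave log2 signals on its brighter probe of 13.05, 13.13 and 13.18 in B41 HET samples and of 12.44, 12.39 and 12.34 in B41 KO samples. The lowest B41 HET sample was 0.61 above the highest B41 KO sample. The log2 fold change was -0.73 (SE 0.07, limma adjusted p = 0.00831), a level 1.66 times as high in B41 HET (95% interval 1.47 to 1.88). The dimmer probe gave 11.78, 11.72 and 11.72 in B41 HET samples and 11.10, 11.16 and 11.03 in B41 KO samples. Its groups did not overlap either, and its log2 fold change of -0.64 (SE 0.07, adjusted p = 0.0103) differed from that of the brighter probe by little more than a standard error. The brighter probe stayed called with any 1 sample left out, at adjusted p from 0.0340 to 0.0492, and the dimmer probe lost its call without B41 HET replicate 2 (adjusted p = 0.0550). Fewer cells of a type that makes a transcript and less transcript per cell cannot be told apart in such sorted bulk samples.

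The 2 genes for IL-1 itself lay lower in every B41 KO sample, but their brightest probes did not pass the test. Il1a, which encodes IL-1 alpha, gave 9.61, 9.48 and 9.50 in B41 HET samples and 9.26, 9.07 and 9.10 in B41 KO samples. All 3 B41 KO values were under all 3 controls, by at least 0.22. The log2 fold change was -0.39 (SE 0.09, 95% interval -0.60 to -0.18, adjusted p = 0.0585), short of both thresholds.

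The Il1b probes, for the precursor of IL-1 beta, disagreed in size. The brighter probe gave 8.12, 8.11 and 8.35 in B41 HET samples and 7.84, 7.72 and 7.93 in B41 KO samples, a log2 fold change of -0.37 (SE 0.10, adjusted p = 0.105). The dimmer probe gave 6.51, 6.43 and 6.27 in B41 HET samples and 5.06, 5.01 and 4.46 in B41 KO samples, a fall of 1.56 on the log2 scale (SE 0.18, adjusted p = 0.0120). The groups overlapped on neither probe, and the 95% interval of the dimmer probe, -2.01 to -1.11, did not reach that of the brighter, -0.62 to -0.11. The mean over both probes was called lower, at -0.96 (adjusted p = 0.00537). The call on the dimmer probe was lost without B41 HET replicate 1 or 2 (adjusted p = 0.0546 and 0.0601), and with normexp background correction its log2 fold change was -0.74 and that of the brighter probe -0.40. Both probes are assigned to the same transcript in the array's design, and why they differ was not tested.

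The genes of the IL-1 antagonist and IL-18 were not called, and their groups overlapped. Il1rn gave 6.46, 6.36 and 6.70 in B41 HET samples and 6.66, 6.56 and 6.77 in B41 KO samples on its detected probe. The log2 fold change was 0.16 (SE 0.12, 95% interval -0.13 to 0.44, adjusted p = 0.498). It was 0.08 without B41 HET replicate 2, 0.10 without B41 KO replicate 3, 0.25 without B41 HET replicate 3 and 0.04 with normexp correction. Measured within each sample, the gap from Il1a to Il1rn changed by -0.55 on the log2 scale (SE 0.14) and that from Il1b to Il1rn by -0.52 (SE 0.03), without overlap between the groups in either. For both gaps the two-sided exact permutation p was 0.1, the smallest that 3 samples against 3 allow, among 3 gaps compared. Il18, for an IL-1 family cytokine that caspase-1 processes, gave 6.16, 6.15 and 6.06 in B41 HET samples and 6.29, 6.49 and 6.06 in B41 KO samples. B41 KO replicate 3 lay at the lowest control, and the log2 fold change was 0.16 (95% interval -0.15 to 0.46, adjusted p = 0.525). It was 0.05 without B41 KO replicate 2 and 0.27 without B41 KO replicate 3.

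**Figure D2:**
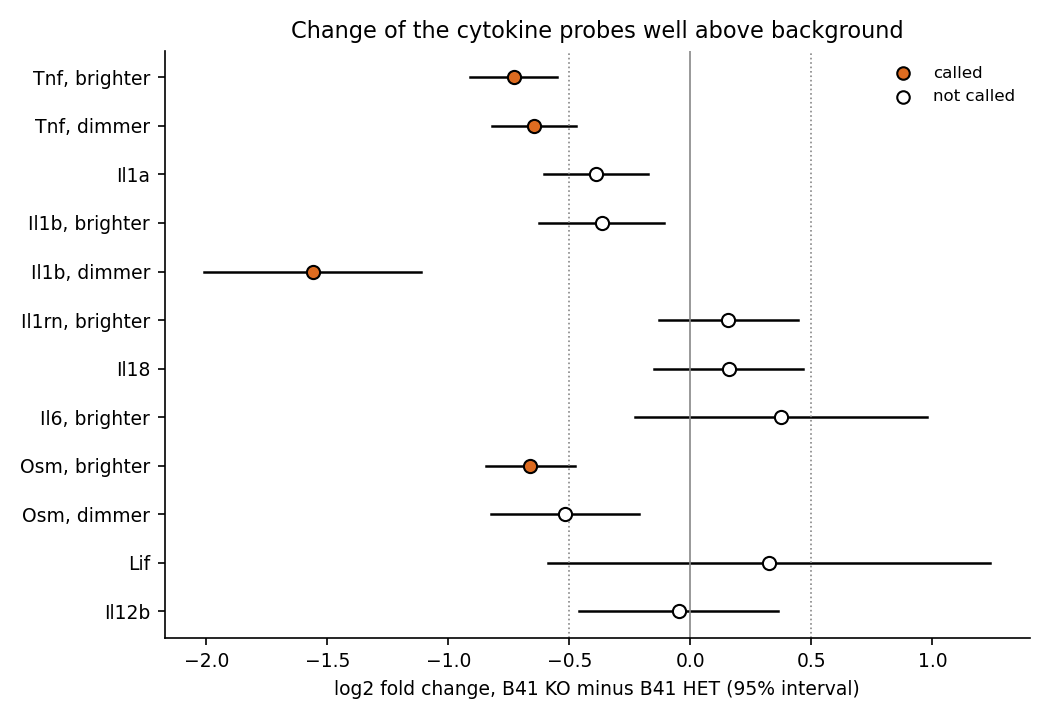
Log2 fold change from B41 HET to B41 KO (horizontal axis) with its 95% interval for the 12 cytokine probes well above background, with 3 samples a group. Filled points were called, and dotted lines mark the threshold of 0.5 in each direction. The called probes are both Tnf probes, the dimmer Il1b probe and the brighter Osm probe, at -0.73, -0.64, -1.56 and -0.66.

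Within the gp130 family, Osm was lower in B41 KO microglia while Il6 and Lif were not called. Osm, the gene for oncostatin M, gave 7.83, 7.73 and 7.75 in B41 HET samples and 7.04, 7.12 and 7.18 in B41 KO samples on its brighter probe. The groups were 0.56 apart at their nearest samples, and the log2 fold change was -0.66 (SE 0.07, adjusted p = 0.0110), a level 1.58 times as high in B41 HET (95% interval 1.39 to 1.80). The dimmer probe gave 7.41, 7.11 and 7.17 against 6.81, 6.53 and 6.79, a log2 fold change of -0.52 (SE 0.12) whose adjusted p of 0.0698 missed the threshold. It passed when dim probes were filtered out (adjusted p = 0.0371), with fewer probes to adjust over, and with trended, robust variances (adjusted p = 0.0393). With normexp correction the log2 fold change of the dimmer probe was -0.32, short of the fold threshold (limma adjusted p = 0.0198). The call on the brighter Osm probe was lost without B41 HET replicate 2 (adjusted p = 0.0550).

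Lif, a gp130 ligand whose gene lies next to Osm on chromosome 11, was dim and variable, at 4.42, 4.07 and 3.66 in B41 HET samples and 3.63, 4.77 and 4.74 in B41 KO samples. Its groups overlapped, with B41 KO replicate 1 below all controls and the other two above them, and its 95% interval ran from -0.59 to 1.24 (adjusted p = 0.664). The gap from Osm to Lif changed by -0.99 (SE 0.39, two-sided exact permutation p = 0.2). Il6 on its detected probe gave 3.73, 3.45 and 2.97 in B41 HET samples and 3.998, 3.42 and 3.85 in B41 KO samples. These overlapped too, and the log2 fold change of 0.37 had a 95% interval of -0.23 to 0.98 (adjusted p = 0.435). With 1 sample left out the value for Il6 ran from 0.17 (without B41 HET replicate 3) to 0.55 (without B41 HET replicate 1), and it was 0.615 with slide row in the fit and 0.07 with normexp correction. That for Lif, 0.33 in all 6 samples, ran from 0.13 (without B41 HET replicate 3 or B41 KO replicate 2) to 0.70 (without B41 KO replicate 1), and was -0.42 with slide row in the fit and 0.08 with normexp. Both genes remained uncalled under each alternative.

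Il12b, for the p40 subunit shared by IL-12 and IL-23, gave 4.63, 4.57 and 4.48 in B41 HET samples and 4.86, 4.40 and 4.27 in B41 KO samples. The B41 KO samples lay on both sides of the controls, and the log2 fold change was -0.05 (95% interval -0.46 to 0.36, adjusted p = 0.899). It ran from -0.22 (without B41 KO replicate 1) to 0.07 (without B41 KO replicate 3) with 1 sample left out and was 0.30 with slide row in the fit. Il10 stayed at background throughout.

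Fitted with slide row as a block, limma called 0 members and 0.784% of all probes, and 4 of the 15 cytokine probes were lower at an unadjusted p under 0.05, against 8.51% of all probes. Row 2 holds B41 KO arrays only, so that fit, like a comparison within row 1, rests on B41 KO replicate 1 against the 3 B41 HET samples. The log2 fold changes were then -0.68 for the brighter Tnf probe (adjusted p = 0.0864), -0.74 for the brighter Osm probe (adjusted p = 0.0717) and -1.34 for the dimmer Il1b probe (adjusted p = 0.107), in the same direction.

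Around the cytokines, genes of their receptors and pathways are given from lists of 79 genes in all, of which 18 were called lower and 1 higher on the brightest probe, where 4.01% of all genes were called lower and 1.44% higher, the former being 1.2% to 2.21% with 1 sample left out and 0.494% with slide row in the fit. Il6ra had 1 spot left out. Of 15 receptor subunits, 2 were called lower (13.3%), 1 higher and 12 not (median log2 fold change -0.10). Il1r2, the decoy receptor that binds IL-1 without signalling, gave 6.64, 6.61 and 6.36 in B41 HET samples and 4.19, 4.87 and 4.53 in B41 KO samples. The log2 fold change was -2.01 (SE 0.19, adjusted p = 0.00744), and both its probes were called. With normexp correction it was -0.92, still called, about level with the -0.91 of Tnfrsf1b. Tnfrsf1b, the TNF receptor TNFR2, fell by 0.92 on the log2 scale (adjusted p = 0.0308), and Il12rb1, a subunit of the IL-12 and IL-23 receptors, rose by 0.89 (adjusted p = 0.0194). The call on Tnfrsf1b was lost without B41 HET replicate 1, 2 or 3 or B41 KO replicate 2 or 3, at adjusted p from 0.0607 to 0.110, and with slide row in the fit (adjusted p = 0.187). That on Il12rb1 was lost without B41 HET replicate 1 or B41 KO replicate 1, 2 or 3 (adjusted p from 0.0622 to 0.0711) and with slide row in the fit (adjusted p = 0.150), and with normexp correction its log2 fold change was 0.22.

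Of 12 partner subunits, binding proteins and processing genes, 1 was called, lower (8.33%, median -0.05). That gene was Ebi3, a subunit of IL-27 and IL-35, with a log2 fold change of -0.92 (SE 0.08, adjusted p = 0.00626). It stayed called with any 1 sample left out, and with slide row in the fit the call ended, at -0.85 (adjusted p = 0.0678). Of 17 genes of signal transduction below the receptors, 2 were called lower (11.8%) and 15 not (median -0.04). Against 4.01%, the shares in these 3 lists rest on 1 or 2 genes each, and their medians lay between -0.21 and 0.0019 under all alternatives. Irak1, a kinase of the IL-1 receptor pathway, changed by -1.23 (SE 0.07, adjusted p = 0.00197) on its brightest probe, which was the only called probe of 3. Myd88, the adaptor of IL-1 and Toll-like receptors, changed by -0.50 (adjusted p = 0.0378) at the fold threshold itself, and was under it or the test with any sample left out.

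Of 20 genes of the transcriptional and mRNA control of cytokines, 5 were called lower (25%) and 15 not, with a median of -0.20. The median was -0.13 without B41 HET replicate 1 and with normexp, and -0.25 without B41 HET replicate 3. Dusp1, the phosphatase that turns off p38 and JNK, changed by -1.11 (SE 0.09, adjusted p = 0.00466). Rela, the NF-kappaB subunit p65, changed by -0.78 (adjusted p = 0.0137) on 1 of its 2 probes, and Nfkb2, the gene of the p100 and p52 subunits, by -0.60 (adjusted p = 0.0393) on both of them. Socs3, an inhibitor of gp130 signalling, changed by -0.69 (adjusted p = 0.0130), and Irf1, an interferon regulatory factor, by -0.63 (adjusted p = 0.0349) on 1 of 2 probes. The called genes hold activators and inhibitors of cytokine production alike. Leaving out any of the 6 samples left 1 to 3 of the 5 calls, and 0 were left with slide row in the fit.

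**Figure D3:**
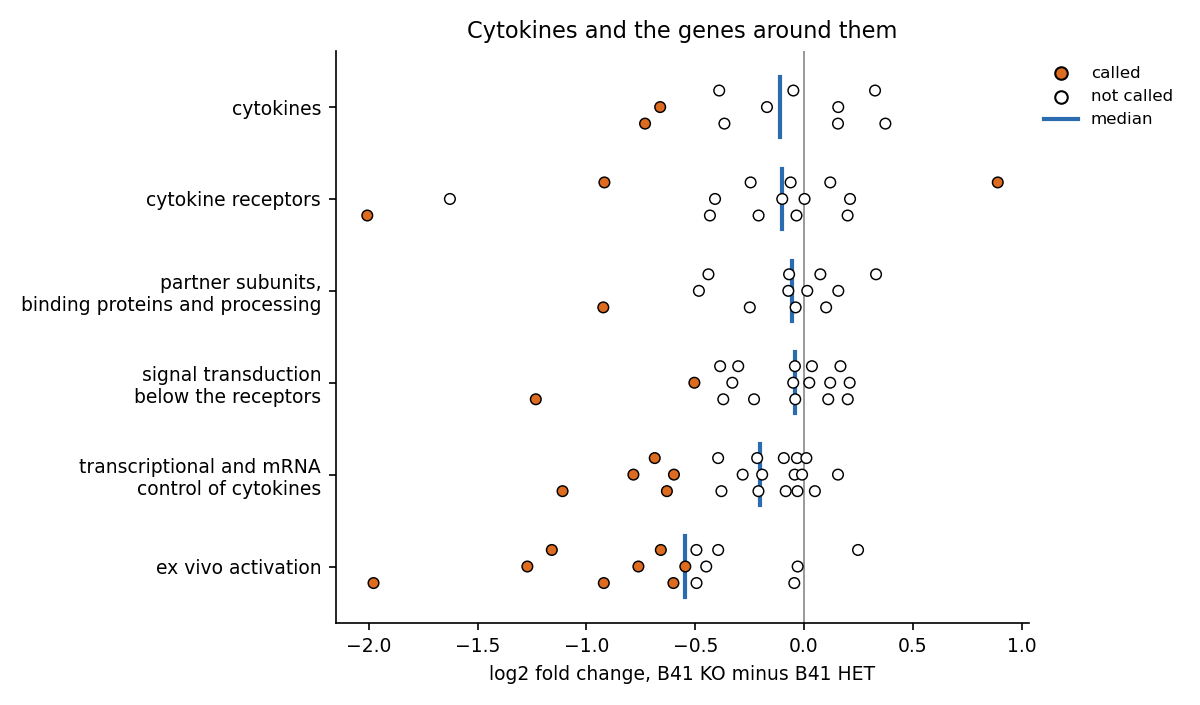
Log2 fold change from B41 HET to B41 KO (horizontal axis) of each gene's brightest probe, for the 10 cytokines (Il10 at background included) and 5 gene lists (rows, points spread vertically only to separate them). Filled points were called, and blue bars are list medians, at -0.11 for the cytokines and -0.55 for the ex vivo activation genes.

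Of 15 ex vivo activation genes, which dissociation and sorting induce, 8 were called lower in B41 KO samples beside Tnf and Osm and 7 were not called, against 4.01% of all genes called lower, and the median was -0.55. The heat shock gene Hspa1a changed by -1.98, Atf3 by -1.27, Klf2 by -1.16, Fosb by -0.92, Klf6 by -0.76, the chemokine Ccl4 by -0.66, Fos by -0.60 and Jun by -0.55. With normexp correction the value of Hspa1a was -1.255, and the call on Fos ended with the 75th percentile shift or the authors' processed values (adjusted p = 0.0526 and 0.0517). Of the 7 genes not called, Egr1, Nr4a1, Ier2 and Junb had log2 fold changes of -0.49, -0.49, -0.45 and -0.39, short of the fold threshold, with every B41 KO sample below every B41 HET sample and adjusted p from 0.0252 to 0.0524. The groups of Ier3, Ccl3 and Hspa1b overlapped, at -0.04, -0.03 and 0.25. The signals of all 15 genes of the list, called or not, added up to 94090 to 98359 in B41 HET samples and to 60290 to 63311 in B41 KO samples. With 1 sample left out, 4 were called without B41 HET replicate 2 or B41 KO replicate 1, 5 without B41 HET replicate 1 or 3, and 6 or 7 otherwise, and 2 were when slide row was fitted. Their part in the cytokine values was not tested.

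Some markers of other myeloid cells were also called lower in B41 KO samples, and neutrophils, monocytes and border macrophages are themselves sources of TNF, IL-1 and oncostatin M, as neutrophils are of the decoy receptor Il1r2. The sort kept CD45lo Cx3cr1+ CD11b+ cells, whereas neutrophils are high in CD45 and lack Cx3cr1. Whether other cells passed this gate was not tested. The counts of markers that follow stand against 4.01% of all genes called lower, 1.2% to 2.21% with 1 sample left out, 0.494% with slide row in the fit and 2.72% with normexp. Of 12 neutrophil markers, 9 were called lower, with a median of -2.35 and summed signals of 31234 to 35171 in B41 HET samples and 5898 to 6379 in B41 KO samples. They were led by Ltf, Ngp and Mmp9, at -3.17, -3.13 and -3.00, and all 12 were well above background on every array. The count was also 9 with any 1 sample left out and when slide row was fitted. Of 8 monocyte markers, 3 were called lower (Plac8, Chil3 and Ly6c2, median of the list -0.33), with summed signals of 1771 to 1877 in B41 HET and 803 to 879 in B41 KO samples. Of 8 border macrophage markers, 5 were called lower (F13a1, Cbr2, Ms4a7, Cd163 and Pf4, median -1.18), with summed signals of 2372 to 2568 in B41 HET and 1605 to 1790 in B41 KO samples, while 3 of them (F13a1, Mrc1 and Lyve1) were dim on some array. Leaving out B41 HET replicate 1, 2 or 3 or B41 KO replicate 1 or 2 cut those 5 calls to 2 or 3 (with Lyve1 called in addition without B41 KO replicate 1), leaving out B41 KO replicate 3 to 4, normexp correction to 2 and slide row in the fit to 1 (Cd163), and the median of -1.18 was -0.42 with normexp. The monocyte call on Plac8 ended with slide row in the fit and with any 1 sample left out other than B41 KO replicate 3, while Chil3 and Ly6c2 stayed called in all of these, and the median was -0.12 with normexp.

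Of 10 microglia markers, all well above background on every array, 1 was called, Fcrls at -0.76 (median -0.05, not called with slide row in the fit), and their signals added up to 157470 to 172138 in B41 HET and 153036 to 161809 in B41 KO samples. Of 7 dendritic cell markers, 2 were called lower (Clec10a and Cd209a), with Xcr1 dim on every array. Cd209a lost its call with slide row in the fit and with any 1 sample left out other than B41 KO replicate 2. The median of -0.40 is the value of the dim Xcr1 probe. That median was -0.96 without B41 HET replicate 2, -0.18 without B41 HET replicate 1, -0.05 without B41 HET replicate 3, -0.74 without B41 KO replicate 3 and -0.05 with normexp. Of 5 B cell markers 1 was called lower (Cd79a, median 0.02, not called with slide row or normexp), and of 5 endothelial markers 2 (Ly6c1 and Pecam1, with Cdh5 and Flt1 dim on all arrays). Cldn5, well above background on every array, had a log2 fold change of -0.13 with overlapping groups. The endothelial median of -0.76 is the value of the dim Flt1 probe. That median was -0.42 without B41 HET replicate 3, -0.38 without B41 KO replicate 1, -1.52 with slide row in the fit and -0.10 with normexp. No marker of T and NK cells, astrocytes or neurons was called by limma among 7, 4 and 4, where an unadjusted p under 0.05 was reached by 1 T and NK cell marker in each direction (against 14.4% of all genes lower and 10.6% higher) and by 0 of the other two types. The part of these cells in the Tnf, Osm, Il1a, Il1b and Il1r2 values was not tested.

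**Figure D4:**
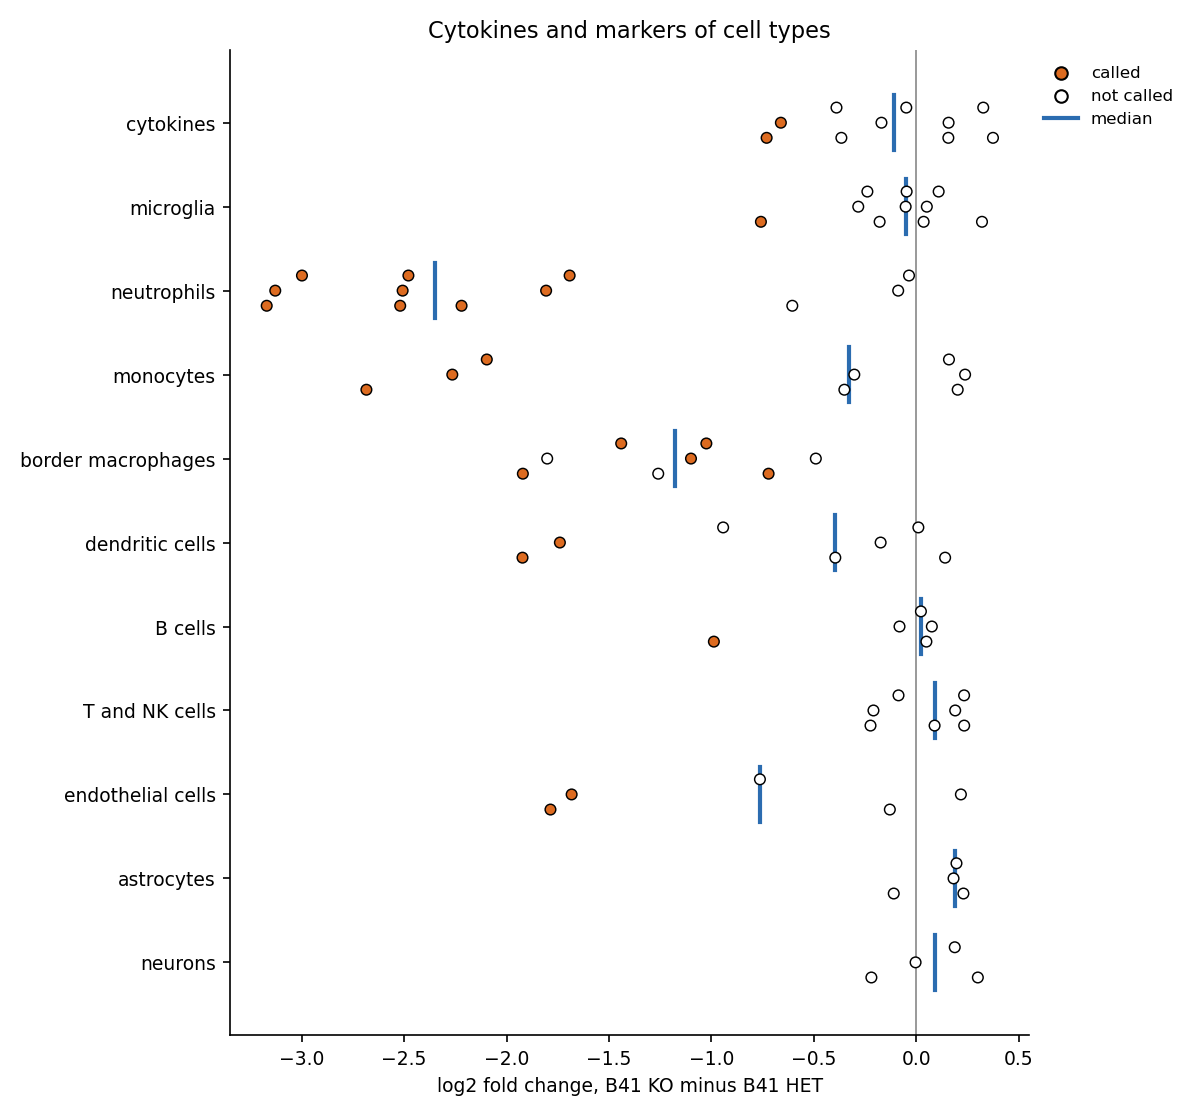
Log2 fold change from B41 HET to B41 KO (horizontal axis) of each gene's brightest probe, for the 10 cytokines (Il10 at background included) and the markers of 10 cell types (rows, points spread vertically only to separate them). Filled points were called, and blue bars are list medians. The neutrophil markers have a median of -2.35 and the microglia markers of -0.05.

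The 3 genes whose pattern over the 6 arrays was most like that of Tnf, by Pearson correlation of log2 signals on the brightest probes, were Tmem234 (0.9998), Unc119 (0.9989) and Rnf113a2 (0.9988). Their log2 fold changes were -0.30, -0.77 and -0.44, and Unc119 alone was called. A correlation of at least 0.95 with Tnf was shared by 1018 of 23440 genes, and these points share the difference between the genotypes.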

How the data were processed

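Gene expression was measured in 6 one-colour Agilent SurePrint G3 Mouse v2 arrays. The authors deposited scanner intensities, made with Feature Extraction 11.5.1.1, which were background-subtracted within each array and not normalized between arrays. They also deposited a table of log2 values with 56745 entries, which ranked probes as the scanner output did (Spearman correlation of at least 0.999999) and was read as quantile-normalized, its scale not being stated there. It was used as an alternative.

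Control spots and spots with outlier flags (95 to 136 per array, none of them a cytokine probe) were left out, log2 processed intensities were quantile normalized, spots of a probe were averaged, and probes with values in at least 2 samples per genotype were tested with limma 3.58.1 in R 4.3.3 (data.table, version 1.17.8), with all 6 samples, genotype as the only term and Benjamini-Hochberg adjustment over all probes. The study's methods name quantile normalization, limma and the thresholds. Probes were named by transcript accession through a RefSeq table on GRCm38.p6 (33767 of 56605, 59.7%). For a gene with 2 probes the one with the highest mean signal is the brighter, and the brightest probe stands for the gene. The labels give 3 mice per genotype, whereas the methods state that each sample pooled several mice, so what a replicate is cannot be settled here, and p-values measure the spread between these samples.

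The members, gene lists and tests were chosen with earlier results of these data known. The result of 1 marker list is not reported here. All members were named, and from the lists each called gene could be named, and the gene with the largest change. Motifs were searched in RefSeq promoters, with pandas 2.3.3 in Python 3.11.15 and plots by matplotlib 3.10.9. The fit was tested on simulated data. The alternatives were a shift to the 75th percentile, the authors' log2 values, normexp with an offset of 50, a filter on dim probes (3 or more arrays above background), flagged spots kept, trended and robust variances, replicate number or slide row as a block, leaving out each sample, adjusted p alone, and the mean over probes or the probe with the lowest p for a gene.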

Additional observations from a re-analysis of the deposited data

How the results depend on the processing

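The 2 members called on the brightest probe, Tnf and Osm, were also the ones called with the 75th percentile shift, the authors' processed values, normexp, the filter on dim probes, outlier spots kept, trended and robust variances, and adjusted p alone. The count was 3 with the average of a gene's probes or the probe with the lowest p, by the addition of Il1b, and 1 to 2 with each sample left out, the lowest without B41 HET replicate 2, where Tnf alone was called. The count of probes called was 4 to 5 over the first of these alternatives and 1 to 4 with each sample left out. With the slide row as a block the count of members called was 0 and that of probes 0. With the replicate block both counts were 0 too, at adjusted p from 0.0666 to 0.0849 for the 4 called probes, where 0.0742% of all probes were called and 7 cytokine probes were lower at an unadjusted p under 0.05, against 11.6% of all probes. Deviations of same-numbered samples from their group means correlated at 0.03, 0.01 and 0.05, and those of differently numbered samples at -0.051 to 0.028. Such weak correlations cannot decide whether the replicate numbers pair the samples. Signs of the uncalled Lif, Il12b, dimmer Il1rn, dimmer Il6 and Il10 probes varied with the setting. No called probe changed sign under any alternative. The same alternatives were applied to the gene lists after seeing the data. The 18 pathway genes called lower were 9 to 11 with each sample left out, 4 with the slide row as a block and 0 with the replicate block, and 16 to 23 elsewhere. The 24 cell type markers called lower were 18 to 21, 15 and 7 in the same order, and 19 to 28 elsewhere. The 75th percentile shift moved the median of all probes to 0.13 from 0.02. The causes of these changes were not tested.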

Other observations

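Genes that lie next to the members in the genome, by the order of protein-coding genes in RefSeq on GRCm38.p6 and chosen after their values were seen, did not all move with them. Ltb, for the lymphotoxin beta subunit and the neighbour of Tnf on chromosome 17, was called lower in B41 KO microglia, with a log2 fold change of -0.68 (SE 0.07, limma adjusted p = 0.00873). Lta, its neighbour on the other side, differed by -0.35 (SE 0.19, adjusted p = 0.355) and was well above background on 5 of 6 arrays. Il1a and Il1b are neighbours on chromosome 2, and on the brightest probe neither was called. Castor1, next to Osm on the side away from Lif, had a log2 fold change of -0.25 (adjusted p = 0.0945).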
